A study of Mus musculus with 23 samples.

Results

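The genes described here are 9 immediate early genes of 3 families, with 3 genes in each: the EGR genes Egr1, Egr2 and Egr3, the NR4A genes Nr4a1, Nr4a2 and Nr4a3, and the IER genes Ier2, Ier3 and Ier5. They were chosen by symbol and read in every deposited table, among 21878 genes in the tables of sorted neutrophils and 55335 in the table of whole lung. Neutrophils of C57BL/6J WT mice were sorted from lung, peripheral blood (PB) and bone marrow (BM) as CD45+CD11b+Ly6G+ cells, with 3 libraries per tissue. A separate experiment took neutrophils of WT mice and of Piezo1-cKO mice, each from lung and from PB, with 2 libraries per group. PIEZO1 is a calcium-permeable channel opened by membrane stretch. The cKO mice carried Piezo1 fl/fl with Vav1-iCre, whose promoter is active across blood cell lineages, so the deletion was not confined to neutrophils by design. The paper showed the loss of Piezo1 in BM neutrophils, and its extent in the other blood lineages was not given in the sources used here. The alleles and Cre status of the WT mice of that experiment were not given in the sources used here. In the last experiment, RNA of the whole lung was sequenced from 3 mice given an anti-Ly6G antibody, which depletes neutrophils, and from 3 given an isotype control. The titles of the control samples name WT mice, and those of the depleted samples name the depletion and no genotype. The study's methods describe its mice as adult females or males. The age of the mice used for whole lung was not given separately in the sources used here, and the paper introduces that experiment after a neutrophil depletion at an early age. The labels do not say that the libraries of a group came from different animals, so the p-values measure only the spread between these libraries, which may be technical.

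Immediate early genes are transcribed within minutes of a stimulus from preformed transcription factors, without new protein synthesis, and most of their RNAs are short-lived. EGR proteins are zinc finger transcription factors induced through serum response factor and its ERK-driven partners. NR4A proteins are orphan nuclear receptors induced by cAMP and by calcium, in part through CREB, and in myeloid cells they are known as regulators of inflammatory gene expression. The IER genes are named for early induction rather than for shared structure: Ier2 and Ier5 encode related nuclear proteins, whereas Ier3 encodes an unrelated small protein known as an NF-kB target and a regulator of survival and ERK signaling.

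The sequences upstream of the 3 NR4A genes are shown first, because these genes set lung neutrophils apart from PB neutrophils most clearly below. The core of the CREB-binding element, TGACG, was searched on both strands in the 250 bases before each RefSeq start (GRCm38.p6), where 6 of the 9 genes could be matched. Nr4a1, Nr4a2 and Nr4a3 each held 4 copies. Of 32851 mouse promoter windows of the same length, 17.8% held at least 1 copy and 0.137% held at least 4, the NR4A windows included. The copies are in capitals, and those on the opposite strand read CGTCA. The Nr4a3 sequence stops where an annotated exon begins, so its last copy, at −147, is not in the stretch shown.
Nr4a1, chr15:101266596-101266845, plus strand: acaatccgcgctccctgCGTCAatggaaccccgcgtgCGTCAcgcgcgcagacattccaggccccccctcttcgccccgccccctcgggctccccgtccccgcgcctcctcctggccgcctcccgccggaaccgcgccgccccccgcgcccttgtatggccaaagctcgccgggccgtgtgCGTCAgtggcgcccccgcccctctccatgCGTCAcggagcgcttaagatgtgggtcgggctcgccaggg
Nr4a2, chr2:57124004-57124253, minus strand: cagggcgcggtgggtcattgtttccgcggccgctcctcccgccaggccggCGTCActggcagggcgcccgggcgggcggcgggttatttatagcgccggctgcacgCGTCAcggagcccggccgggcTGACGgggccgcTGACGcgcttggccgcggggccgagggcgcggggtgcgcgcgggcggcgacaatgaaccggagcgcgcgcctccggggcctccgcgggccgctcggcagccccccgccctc
Nr4a3, chr4:48045055-48045152, plus strand: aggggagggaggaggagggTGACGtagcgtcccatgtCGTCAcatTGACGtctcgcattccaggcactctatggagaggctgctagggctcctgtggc
In Nr4a1 the copies began at −233, −213, −69 and −40 relative to the RefSeq start, which lies inside the longer GENCODE gene span. In Nr4a2 they began at −200, −144, −123 and −111, and in Nr4a3 the copies shown began at −231, −213 and −205. The other matched genes differed. Egr2 has 5 windows, of which 3 overlap and hold the same 2 copies, and Ier3 and Ier5 had 0 copies. The CArG box, bound by serum response factor, matched 4 of the 5 Egr2 windows and 1.47% of all windows. The 3 overlapping Egr2 windows hold the same box. A kB motif stood at −92 to −83 of Ier3 (3.9% of windows), a MEF2 motif at −167 to −158 of Nr4a2 (1.69%), and GCGGGGGCG, an EGR-type site, on the minus strand at −60 to −52 of Nr4a1 (2.57%). The full palindrome TGACGTCA, GCGTGGGCG and AAAGGTCA matched none of these windows. These matches are letters in a window and say nothing of binding in these cells.

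The genes lie on different chromosomes of GRCm38, and no other annotated gene (GENCODE) overlapped any of them. Egr2 spans chr10:67535475-67542188 and Egr3 chr14:70077203-70082614, both on the plus strand. Nr4a1 spans chr15:101254269-101274795 (plus), Nr4a2 chr2:57106830-57124003 (minus) and Nr4a3 chr4:48045153-48086447 (plus). The IER genes are short. Ier2 (chr8:84661331-84662852, minus) and Ier5 (chr1:155096361-155099636, minus) have 1 exon each, and Ier3 (chr17:35821684-35822923, plus) has 2.

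Some facts of the series bear on all that follows. Values are FPKM, which scale the fragments of a gene to its length and to the size of the library, so levels can be set side by side between genes. Whole reads could be recovered from the FPKM of the 17 sorted libraries and gave 16480330 to 19321153 read pairs per library in the tissue experiment and 9608411 to 15014346 in the Piezo1 experiment, whereas the depth of the whole lung libraries is unknown. PB replicate 3 of the tissue experiment stood apart from the other 2 PB libraries (chi-square per degree of freedom of 24.6 and 41.0 on the reads, against 1.90 to 4.77 for the other replicate pairs) and was the lowest PB library for 8 of the 9 genes. Lung was digested with enzymes at a warm temperature, whereas PB and BM were not digested, and lung and PB passed a negative selection that BM did not. Tissue and preparation therefore cannot be told apart. The 8 heat shock genes read as a sign of stress summed to 217 to 224 FPKM in lung, 305 to 344 in PB and 201 to 210 in BM, and their part in the results was not tested. Defining genes of lymphocytes, endothelium and epithelium were low in sorted neutrophils, with summed levels of at most 5.84, 3.38 and 6.43 FPKM, against neutrophil marker sums of 40949 to 135327 in the tissue experiment. Monocyte marker sums were 124 to 128 FPKM in lung, 156 to 171 in PB and 60.9 to 65.1 in BM. Erythroid genes summed to 910 to 972 FPKM in PB of cKO mice and to at most 20.9 in the other sorted groups.

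In WT neutrophils the NR4A genes were higher in lung than in PB, the EGR genes differed less between these tissues, and the IER genes went different ways. Each of the 9 genes had its lowest mean in BM. A gene was called when the Benjamini-Hochberg adjusted p of limma over all tested genes was below 0.05 and the log2 fold change of FPKM + 1 exceeded 1 in either direction. By this rule 4 of the 9 genes were higher and 1 was lower in lung than in PB, where 27.2% of all 7577 tested genes were called (7.75% higher and 19.5% lower). The median log2 fold change over all genes was −0.54, so a value of 0 here already lies above the typical gene. Against BM, 8 of the 9 genes were higher in lung (45.9% of genes called in either direction and 9.86% higher, median over all genes −0.70). In PB against BM, 6 of the 7 tested genes were higher (22% of genes called and 7.85% higher, median −0.12). These counts include genes that could only be called one way. The filter on low values required an FPKM of 1 in at least 3 libraries, and Nr4a2 and Nr4a3 reached it in lung alone, as Egr2 and Egr3 did in lung and PB but not in BM. Of the genes that reached 1 FPKM in every library of both groups, 2 were higher and 1 lower of 7 for lung over PB, 4 were higher of 5 for lung over BM, and 4 were higher of 5 for PB over BM.

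**Figure D1:**
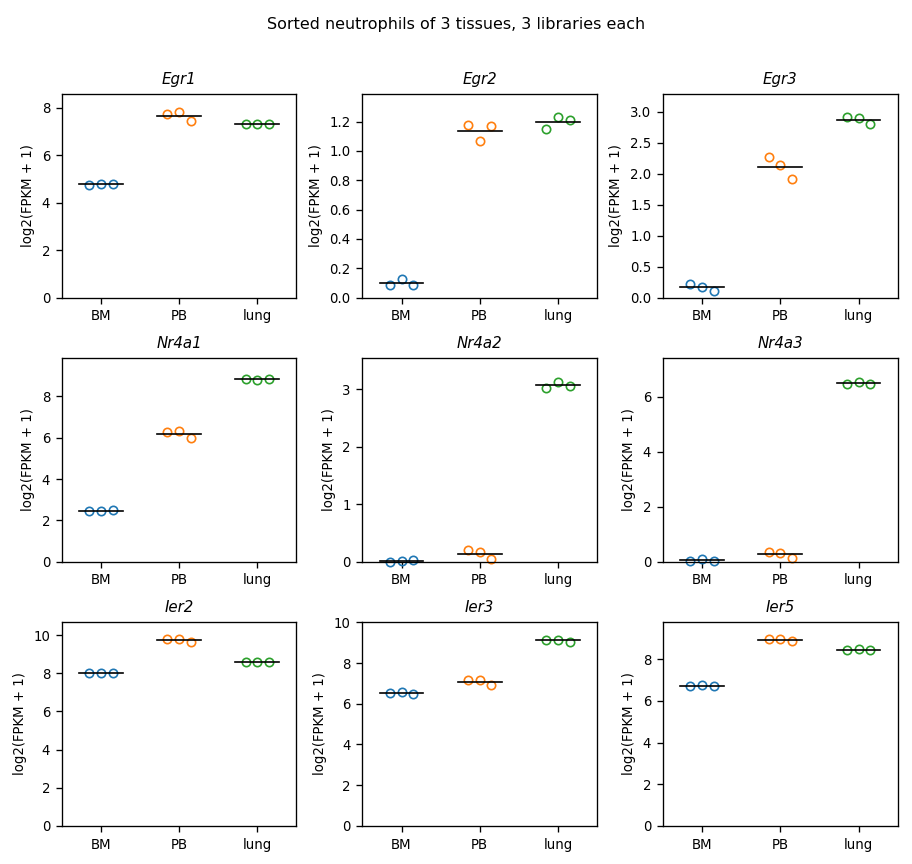
Level of each of the 9 genes in every library of the tissue experiment, as log2(FPKM + 1) on the vertical axis, with BM, PB and lung from left to right, 3 libraries each and a bar at the group mean. Nr4a1, Nr4a2, Nr4a3, Egr3 and Ier3 were highest in lung, Egr1, Ier2 and Ier5 were highest in PB (as deposited, with Egr1 and Ier5 turning above PB in lung after rescaling), and Egr2 overlapped between lung and PB.

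Nr4a1, the NR4A receptor with the highest level in these cells, measured 451, 449 and 450.3 FPKM in the lung libraries. It measured 75.9, 79.2 and 61.7 in PB and 4.51, 4.53 and 4.64 in BM. The 3 tissues did not overlap, and the spread within lung (SD 1.15, n = 3) was small beside the steps between tissues. The mean in lung was 6.23 times that in PB (log2 fold change 2.63 ± 0.0903 SE, limma with Benjamini-Hochberg, adjusted p = 8.27e-08) and 98.6 times that in BM (6.34, adjusted p = 6.74e-16). PB in turn exceeded BM 15.8 times (3.71).

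Nr4a3, which acts on overlapping targets with Nr4a1, was near 0 outside lung. It measured 88.5, 92.6 and 87.1 FPKM in lung, against 0.277, 0.249 and 0.102 in PB and 0.0248, 0.0656 and 0.0259 in BM. In reads, the lung libraries held 9576, 10027 and 9070, the PB libraries 31, 29 and 12, and the BM libraries 3, 8 and 3. Every lung library thus lay far above every library of the other tissues. The pooled ratio of lung to PB was 429 (95% exact interval 340.4 to 548, which covers counting error only), and that of lung to BM was 2293 (1367 to 4195). On the scale of log2(FPKM + 1), which shrinks the change of low genes, the difference between lung and PB was 6.23 ± 0.0768 SE (limma with Benjamini-Hochberg, adjusted p = 7.57e-10). Of the 9 genes it had the widest gap between these tissues. It passed the filter through lung alone, so it could only have been called higher there.

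Nr4a2, the third receptor, showed the same order at a lower level. Lung libraries measured 7.13, 7.73 and 7.34 FPKM, PB libraries 0.151, 0.121 and 0.0398, and BM libraries 0, 0.00766 and 0.0161. These rest on 825, 895 and 818 reads in lung, 18, 15 and 5 in PB, and 0, 1 and 2 in BM, so the lung level is well measured and the others are close to the limit of detection. The ratio of lung to PB was 71.9 (95% exact interval 52.3 to 102), with a fitted log2 difference of 2.93 ± 0.0820 SE (limma with Benjamini-Hochberg, adjusted p = 2.58e-08). Against BM the 3 BM reads gave a ratio of 947 with an interval of 324 to 4596. Like Nr4a3, Nr4a2 passed the filter through lung alone and could only have been called higher there.

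Egr1, a rapid-response factor found in most cells, was the most abundant EGR gene in every tissue and did not follow the NR4A order. It measured 158, 158 and 159 FPKM in lung, 215, 224 and 174 in PB, and 26.2, 26.8 and 26.9 in BM. PB was above lung without overlap and both were far above BM. The fitted difference of lung over PB was −0.35 ± 0.0931 SE (limma with Benjamini-Hochberg, adjusted p = 0.00717), short of the fold threshold. This direction depends on scale: with FPKM rescaled by the median ratio over genes it became 0.28. Lung over BM was 2.53 and PB over BM was 2.88 (7.66 times), and both were called.

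Egr3 and Egr2 were low. Egr3, best known from lymphocytes and muscle spindles, measured 6.53, 6.44 and 5.98 FPKM in lung, 3.80, 3.39 and 2.76 in PB, and 0.163, 0.125 and 0.0788 in BM. Lung exceeded PB without overlap, by 0.77 ± 0.101 SE (limma with Benjamini-Hochberg, adjusted p = 0.000157), below the fold threshold as deposited and at 1.29 above it after rescaling. Egr2, a factor of myelinating Schwann cells and of macrophages, measured 1.22, 1.35 and 1.32 in lung and 1.26, 1.10 and 1.25 in PB, which overlapped (0.06, adjusted p = 0.491), and 0.0605, 0.0928 and 0.0632 in BM. Lung over BM was called for both, at 2.70 for Egr3 and 1.10 for Egr2, and so was PB over BM, at 1.94 and 1.04. Neither gene reached the filter in BM, so both could only have been called higher than BM.

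Ier3 was the IER gene that rose in lung. It measured 566, 556 and 529 FPKM in lung, the top mean level of the 9 genes there, against 142, 144 and 120.2 in PB and 92.4, 94.9 and 89.4 in BM. The tissues did not overlap. Lung exceeded PB 4.06 times (2.02 ± 0.0775 SE, limma with Benjamini-Hochberg, adjusted p = 1.44e-07) and BM 5.96 times (2.56). The step from BM to PB was 0.54 (adjusted p = 0.000301) and was not called.

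Ier2 ran the other way. PB libraries measured 898, 891 and 797 FPKM, lung libraries 388, 382 and 381, and BM libraries 259.7, 258 and 260.3. It was the most abundant of the 9 genes in PB and in BM. PB exceeded lung 2.25 times (−1.16 ± 0.0612 SE for lung over PB, limma with Benjamini-Hochberg, adjusted p = 7.22e-07). Relative to the median of all genes the fall was −0.63, and with rescaled FPKM it was −0.52 and no longer past the fold threshold. Lung over BM was 0.56, not called as deposited and called at 1.41 after rescaling, and PB over BM was 1.73.

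Ier5, a stress-inducible relative of Ier2, measured 351, 355 and 350.2 FPKM in lung, 496, 495 and 462 in PB, and 103, 108 and 105 in BM. PB lay above lung without overlap. The fitted difference of −0.46 ± 0.0520 SE (limma with Benjamini-Hochberg, adjusted p = 5.96e-05) stayed below the fold threshold and turned to 0.18 after rescaling. Both lung (3.33 times, 1.73) and PB (2.18) were called above BM.

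The order of the genes by level therefore changed with tissue. From the highest down it was Ier3, Nr4a1, Ier2, Ier5, Egr1, Nr4a3, Nr4a2, Egr3 and Egr2 in lung, and Ier2, Ier5, Egr1, Ier3, Nr4a1, Egr3, Egr2, Nr4a3 and Nr4a2 in PB. Without PB replicate 3, the library that stood apart, the calls of lung over PB stayed at 5 and those of PB over BM at 6. Nr4a1 was then at 2.52 and Egr1 at −0.47 for lung over PB.

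The other immediate early genes, a list of 33 that includes the FOS, JUN, ATF and DUSP genes, also varied among themselves. In lung against PB, 13 were higher and 6 lower of 31 tested, with a median of 0.54, beside 7.75% and 19.5% of all genes, so that the share called lower was near that of all genes. Those with the widest gap were Fosl1 (5.05, mean 47.0 against 0.473 FPKM), an AP-1 subunit, Maff (4.6, 123 against 4.11), a small Maf factor, and Dusp2 (4.26, 330.5 against 16.4), a phosphatase of MAP kinases. Fosl1 was too low in PB to pass the filter there, so it could only have been called higher in lung. Of 31 tested in lung against BM, 25 were higher and 1 lower (9.86% and 36% of all genes, median 2.59), led by Dusp2 (7.65), Ppp1r15a (6.96) and Fosb (6.95). Of 29 tested in PB against BM, 27 were higher (7.85% of all genes, median 2.27), led by Fosb (5.12), Atf3 (4.89) and Ppp1r15a (4.27). These list counts were not split by how a gene passed the filter, and they include genes that could only have been called higher.

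Genes that act above or beside the 3 families are given next for lung over PB, where 7.75% of all genes were called higher and 19.5% lower, and the counts of these short lists are not far from those shares. Of 7 regulators of EGR activity, Nab1, a corepressor that binds EGR proteins, was higher in lung (2.43, 46.3 against 7.81 FPKM) and Mkl1, a coactivator of serum response factor, was lower (−2.67, 7.04 against 50.04). Of 10 genes of NR4A inputs and partners, Crem, a cAMP-responsive CREB relative, was higher (3.05, 16.6 against 1.14) and Rxrb, a retinoid X receptor, was lower (−1.08). In the calcineurin and NFAT list 1 of 6 was called, Nfatc1, at −1.35. In the ERK list 3 of 10 were called, all lower: the kinases Mapk3 (−1.02) and Rps6ka1 (−1.72) and the feedback inhibitor Spry2 (−2.14). The median over all genes was −0.54 in this comparison, so Rxrb and Mapk3 lay less far below the typical gene than below 0. Values of these genes after rescaling are not given here.

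The Piezo1 experiment repeated the tissue comparison in other WT libraries and in Piezo1-cKO libraries. Piezo1 itself gave 8 and 8 reads (WT) or 7 and 4 reads (cKO) in lung, and 5 and 5 (WT) or 3 and 10 (cKO) in PB. These overlap between genotypes and count the whole gene rather than the floxed segment, so they check nothing about the deletion. The 2 experiments were normalized separately, so levels are compared only within each.

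**Figure D2:**
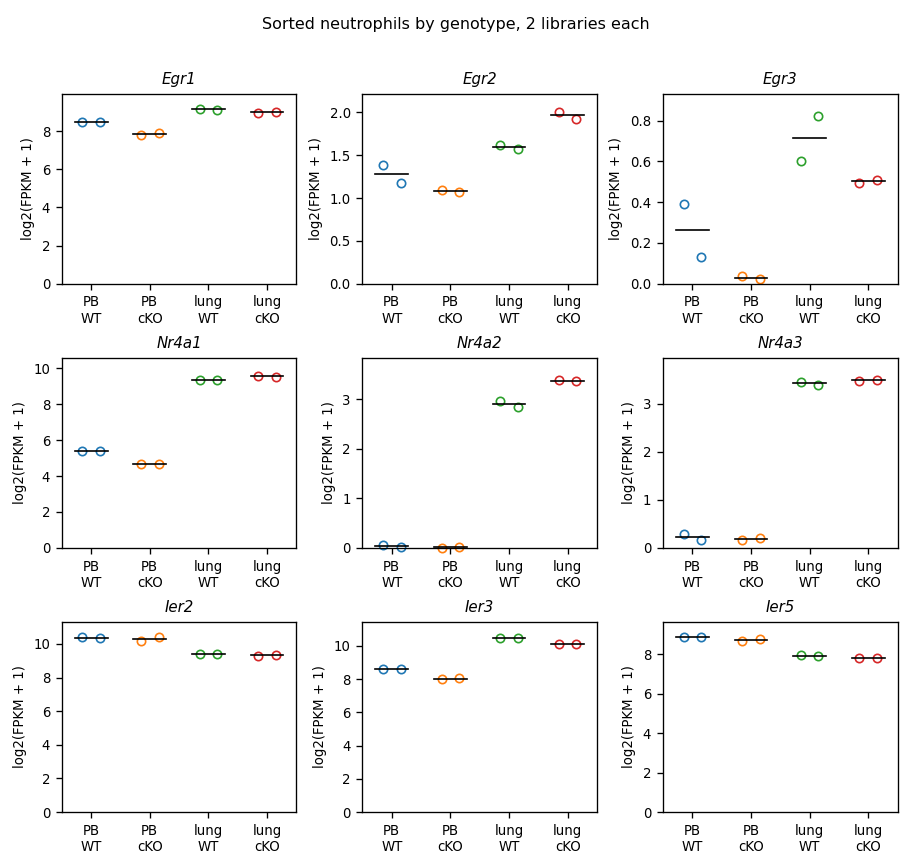
Level of each of the 9 genes in every library of the Piezo1 experiment, as log2(FPKM + 1) on the vertical axis, with PB WT, PB Piezo1-cKO, lung WT and lung Piezo1-cKO from left to right, 2 libraries each and a bar at the group mean. The NR4A genes, Ier3 and Egr1 were higher in lung of either genotype, and Ier2 and Ier5 were higher in PB.

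In lung against PB of WT mice, 4 of the 8 tested genes were higher (34% of genes called and 7.5% higher). Nr4a2 and Nr4a3 again passed the filter through lung alone, and 2 of the other 6 were called, as were 3 of the other 6 in cKO mice. Without the fold threshold 8 passed, 6 higher and 2 lower, as 89% of all genes did. The median over all genes was −0.62. Nr4a1 measured 650.4 and 651 FPKM in WT lung and 41.7 and 40.9 in WT PB, a ratio of 15.8 (3.95, limma with Benjamini-Hochberg, adjusted p = 1.04e-10). Nr4a3 measured 9.95 and 9.58 in WT lung and 0.228 and 0.116 in WT PB, a ratio of 56.7 (3.20). Its lung level was thus below that of Nr4a1 in both experiments, by a wider margin here. Nr4a2 measured 6.80 and 6.19 in WT lung, on 684 and 628 reads, against 3 and 1 reads in WT PB (2.87), and the 4 PB reads give a ratio of 309.0 with an interval of 120.4 to 1136. Each NR4A gene again separated the tissues without overlap, as did each of the 8 tested genes.

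Ier3 measured 1418 and 1429 FPKM in WT lung and 389 and 389 in WT PB (3.66 times, 1.87), and was called. Ier2 was at 678 and 676 in lung against 1347 and 1324 in PB (−0.98), and Ier5 at 245 and 235 against 466 and 464 (−0.95). Both missed the fold threshold, and relative to the median of all genes they were at −0.36 and −0.34. Egr1 measured 577 and 554 in WT lung and 356 and 357 in WT PB, so that here lung lay above PB, by 1.59 times (0.66, adjusted p = 3.41e-07, short of the fold threshold, and 1.41 and past it after rescaling). Egr2 measured 2.08 and 1.98 against 1.61 and 1.25 (0.32). Egr3 was too low to be tested, with 32 and 48 reads in WT lung and 17 and 6 in WT PB, a ratio of 3.28 (95% exact interval 2.04 to 5.46).

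In Piezo1-cKO mice, 5 of the 8 tested genes were higher in lung than in PB (30.9% of genes called and 7.93% higher, median −0.54). They were Nr4a1 (4.88, 30.6 times), Nr4a2 (3.37), Nr4a3 (3.31, 75.6 times), Ier3 (2.09) and Egr1 (1.14, 2.21 times, adjusted p = 2.57e-06). Egr2 was at 0.88, below the fold threshold as deposited and at 1.29 past it after rescaling. Ier2 (−0.96) and Ier5 (−0.93) were lower, short of the fold threshold and at −0.42 and −0.39 relative to the median of all genes, and Ier2 passed it without lung cKO replicate 2 or without PB cKO replicate 1 (−1.10). Egr3 had 25 and 25 reads in cKO lung and 1 and 1 in cKO PB, a ratio of 20.5 with an interval of 5.39 to 174. Each of the 8 tested genes had the same sign in cKO as in WT mice of this experiment.

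**Figure D3:**
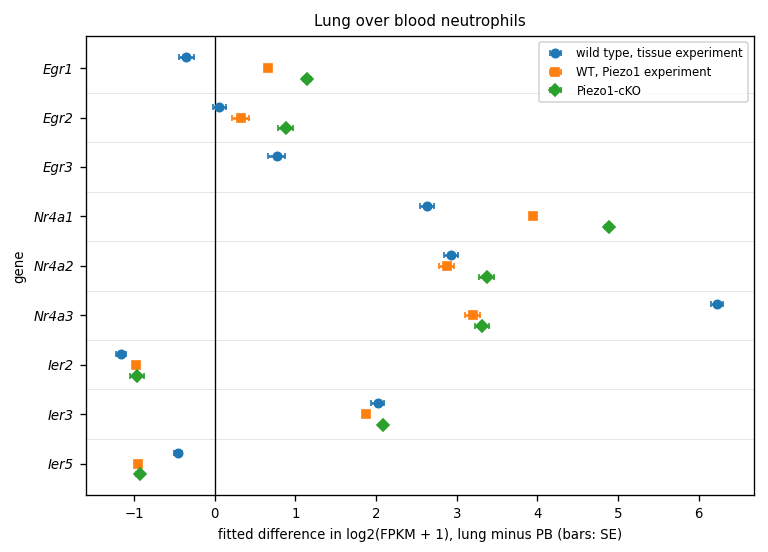
Fitted log2 difference of lung over PB for each of the 9 genes, with bars of 1 standard error, in the tissue experiment, in WT and in Piezo1-cKO mice of the Piezo1 experiment. The NR4A genes and Ier3 lay above 1 in each of the comparisons in which they were tested, Ier2 and Ier5 lay below 0 (Ier5 above 0 in the tissue experiment after rescaling), and Egr1 went from −0.35 in the tissue experiment to 0.66 and 1.14 in the Piezo1 experiment.

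The list of 33 behaved alike in count. In lung over PB, 12 were higher and 7 lower of 30 tested in WT mice (7.5% and 26.5% of all genes), led by Dusp2 (4.76), Plk3 (4.30), a polo-like kinase, and Dusp5 (4.22), a nuclear ERK phosphatase. In cKO mice 15 were higher and 6 lower of 30 (7.93% and 23% of all genes), led by Dusp2 (5.39), Ptgs2 (4.75), the inducible cyclooxygenase, and Plk3 (4.74). As in the tissue experiment, the list counts were not split by how a gene passed the filter.

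The comparison of genotypes asks whether the level of these genes depends on Piezo1. In lung neutrophils none of the 8 tested genes reached a 2-fold difference. By limma-voom 0 were called, beside 378 of all genes, and by limma 0, beside 64 of all 6434 genes (0.995%). At an unadjusted p below 0.05, 7 passed, 4 higher and 3 lower in WT, and the same number passed on the adjusted p alone, as 50.7% of all genes did. The median was 0.0073 over the 8 genes and −0.09 over all genes. Ier3 had the smallest adjusted p: 1418 and 1429 FPKM in WT against 1089.7 and 1125 in cKO, 1.28 times (0.36 ± 0.0211 SE, limma with Benjamini-Hochberg, adjusted p = 7.02e-05). Egr1, at 577 and 554 against 502 and 511, was higher in WT by 0.16 (adjusted p = 0.00264), Ier2, at 678 and 676 against 622.5 and 657, by 0.08 (0.0428), and Ier5, at 245 and 235 against 219 and 221, by 0.12 (0.0119). The WT and cKO libraries did not overlap for any of these 4 genes, and the same held for each of the 8 tested genes. With 2 libraries per group this separation carries little weight, and its share over all genes is not given here.

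Nr4a1 was lower in WT lung, at 650.4 and 651 FPKM against 755 and 745 in cKO (−0.21 ± 0.0196 SE, limma with Benjamini-Hochberg, adjusted p = 0.000332). So was Nr4a2, at 6.80 and 6.19 against 9.45 and 9.32 (−0.47 ± 0.0751 SE, adjusted p = 0.00226), and Egr2, at 2.08 and 1.98 against 3.03 and 2.79 (−0.37, adjusted p = 0.0151). The genotypes did not overlap for these genes either, with the same limit. Nr4a3 measured 9.95 and 9.58 in WT and 10.2 and 10.3 in cKO (−0.07, adjusted p = 0.412), a sign that turned after rescaling (0.034). The heat shock sums were 234 to 238 FPKM in WT lung and 280 to 289 in cKO lung, the monocyte marker sums 120 to 122 and 149, and the neutrophil marker sums 86781 to 90107 and 65802 to 70240. The neutrophil markers did not move together. S100a9 (0.54), S100a8 (0.30) and Ly6g (0.19) were higher in WT lung, and Cxcr2 (−0.26), Csf3r (−0.20) and Mmp8 (−0.02) were lower. The part of these in the results was not tested.

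In PB neutrophils, 0 of the 6 tested genes were called by limma-voom, beside 735 of all genes. By limma 0 were called as well, beside 265 of all 7256 genes (3.65%). At an unadjusted p below 0.05, and on the adjusted p alone, 4 passed and all 4 were higher in WT, beside 49.7% of all genes on the adjusted p. Nr4a1 measured 41.7 and 40.9 FPKM in WT and 24.6 and 24.3 in cKO, 1.69 times (0.73 ± 0.0552 SE, limma with Benjamini-Hochberg, adjusted p = 0.000293). Egr1 measured 356 and 357 against 219.7 and 238, 1.56 times (0.64 ± 0.0489 SE, adjusted p = 0.000297). Ier3 measured 389 and 389 against 253 and 267, 1.49 times (0.58 ± 0.0429 SE, adjusted p = 0.000293). For these 3 genes the WT libraries lay above the cKO libraries by more than the spread within either group.

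Ier5 differed less, at 466 and 464 FPKM in WT PB against 409 and 433 in cKO PB (0.14, adjusted p = 0.0278). Ier2 overlapped, at 1347 and 1324 against 1137 and 1371 (0.10, adjusted p = 0.358), and without cKO replicate 1 its sign turned (−0.039). Egr2 measured 1.61 and 1.25 against 1.14 and 1.10 (0.19, adjusted p = 0.199). Nr4a2, Nr4a3 and Egr3 were too low in PB to be tested, at 0 to 19 reads per library. The summed level of erythroid genes was 910 to 972 FPKM in cKO PB and 20.8 to 20.9 in WT PB, against 4.51 to 4.64 in WT lung and 0.422 to 1.70 in cKO lung. Heat shock sums were 312 to 314 FPKM in WT PB and 377 to 401 in cKO PB, and neutrophil marker sums 128295 to 131804 and 106757 to 121245. Among the neutrophil markers, S100a8 (0.20), S100a9 (0.20) and Csf3r (0.10) were higher in WT PB, and Mmp8 (−0.33), Ly6g (−0.17) and Cxcr2 (−0.04) were lower. The PB libraries of the genotypes thus differed in these lists as well, and their part in the PB values was not tested.

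**Figure D4:**
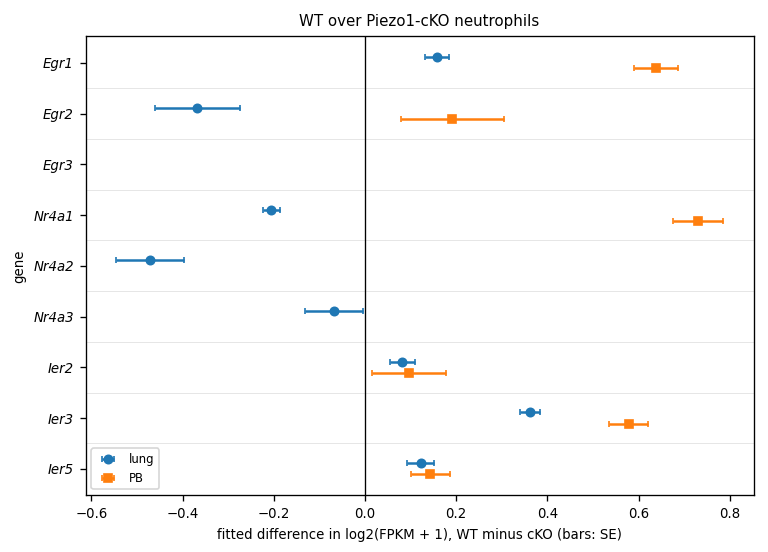
Fitted log2 difference of WT over Piezo1-cKO for each gene in lung and in PB, with bars of 1 standard error; genes not tested in a tissue have no point. In PB the points of Nr4a1, Egr1 and Ier3 lay between 0.58 and 0.73, and in lung those of Nr4a1, Nr4a2 and Egr2 lay below 0.

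Whether the genotype difference itself differed between tissues was tested with the interaction term, WT minus cKO in lung less the same in PB, at an adjusted p below 0.05 with no fold threshold. It was called for 5 of the 8 tested genes, all negative, where 48.2% of all genes were called and 29.7% were negative. Nr4a1 had the widest value, −0.94 ± 0.0438 SE (limma with Benjamini-Hochberg, adjusted p = 7.13e-06): WT was below cKO in lung and above it in PB. Egr1 was at −0.48 ± 0.0572 SE (adjusted p = 0.000346), Egr2 at −0.56 (0.00965) and Ier3 at −0.22 (0.00469). Nr4a2 was at −0.49 (0.00848), but it passed the filter through lung alone, its PB libraries held 0 to 3 reads, so that the value repeats its lung difference of −0.47, and limma-voom gave an adjusted p of 0.158. After rescaling, Ier3 was at −0.10 and no longer called (adjusted p = 0.0973). Nr4a3 (−0.11), Ier2 (−0.01) and Ier5 (−0.02) were not called. Ier2 rested on the PB cKO libraries: it was called at 0.12 without replicate 1 (adjusted p = 0.046) and at −0.15 without replicate 2 (adjusted p = 0.0213). None of the 8 values exceeded 1 in size. Of the list of 33, 30 were tested, 1 was called positive and 15 negative, led by Ptgs2 (−1.60), Jun (−1.41), an AP-1 subunit, and Fosb (−0.99). For WT over cKO the list had 8 positive and 22 negative values in lung, with a median of −0.06 beside −0.09 over all genes. In PB 1 of 28 genes was called, beside 3.65% of all genes: Ptgs2 (1.37, 71.9 against 27.2 FPKM).

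The whole lung comparison asks how lung RNA differs when neutrophils are reduced. In bulk tissue, fewer cells of a type and less RNA per cell cannot be told apart. The neutrophil marker sum was 159 to 201 FPKM in control lungs and 28.9 to 86.0 after anti-Ly6G. It was not the only marker that moved: lymphocyte markers went from 58.9 to 63.1 FPKM to 24.3 to 52.1, and heat shock sums from 444 to 535 to 596 to 706. By limma 0 of the 8 tested genes were called (1 of 13990 genes, 0.00715%), at an adjusted p below 0.05 and a log2 fold change above 0.5 in either direction. Reads could not be recovered from this table, so limma-voom was not run. At an unadjusted p below 0.05, 4 of the 8 passed, all lower after depletion, beside 11.2% of all genes. The same number had groups that did not overlap, beside 17.4%.

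**Figure D5:**
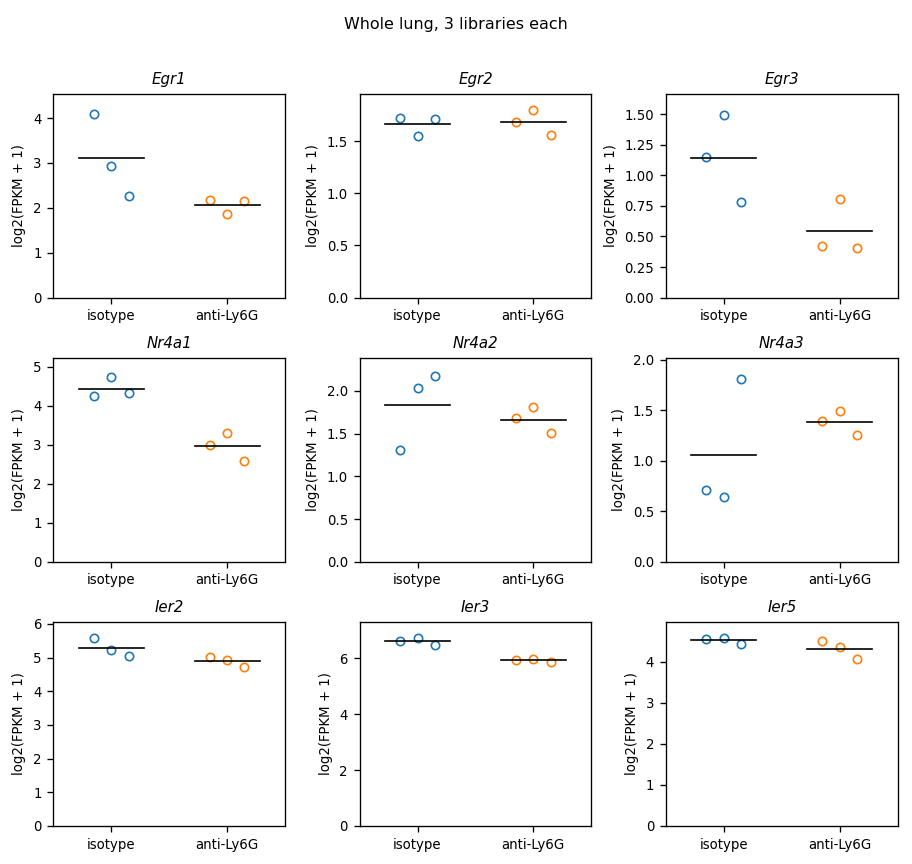
Level of each of the 9 genes in every whole lung library, as log2(FPKM + 1) on the vertical axis, with isotype control and anti-Ly6G from left to right, 3 libraries each and a bar at the group mean. Control lay above anti-Ly6G without overlap for Nr4a1, Ier3, Ier2 and Egr1.

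Nr4a1 measured 17.9, 25.7 and 19.0 FPKM in control lungs and 6.94, 8.85 and 5.0 after depletion, 3.01 times lower (−1.47 ± 0.203 SE, unadjusted p = 0.000159 and adjusted p = 0.0976 by limma with Benjamini-Hochberg). Ier3 measured 98.4, 105 and 89.4 against 60.6, 61.6 and 58.1, 1.62 times lower (−0.69 ± 0.0793 SE, unadjusted p = 4.97e-05 and adjusted p = 0.0696). Neither passed the correction, though every control library lay above every depleted library. Ier2, at 46.4, 36.1 and 32.0 against 31.5, 29.6 and 25.3, was at −0.38 (adjusted p = 0.400).

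Egr1 measured 16.1, 6.67 and 3.80 FPKM in control lungs and 3.52, 2.63 and 3.46 after depletion (−1.04 ± 0.416 SE, unadjusted p = 0.0413 and adjusted p = 0.422). The control libraries were far apart, and without control replicate 1 the difference was −0.54. Ier5 overlapped, at 22.4, 22.9 and 20.7 against 21.7, 19.5 and 15.9 (−0.21). Egr2 overlapped as well, at 2.31, 1.92 and 2.28 against 2.20, 2.48 and 1.95 (0.02).

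Nr4a2 and Nr4a3, near 0 in PB neutrophils and high in sorted lung neutrophils, did not separate these groups. Nr4a2 measured 1.47, 3.10 and 3.49 FPKM in control lungs and 2.20, 2.50 and 1.84 after depletion (−0.17). Nr4a3 measured 0.632, 0.561 and 2.51 against 1.62, 1.82 and 1.39 (0.33). Egr3, at 1.22, 1.81 and 0.722 against 0.339, 0.751 and 0.325, was below the filter. The list of 33 had 11 positive and 21 negative values among its 32 tested genes, with a median of −0.08 beside −0.04 over all genes.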

How the data were processed

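The authors trimmed reads with fastp, aligned them to mm10 with HISAT2, counted them with HTSeq and deposited FPKM per gene, with no tool version given. The labels name a SMARTER mRNA kit and the methods another kit, and strandedness was not given in the sources used here. Columns of the authors' comparisons in the Piezo1 tables (group means, fold changes, p and q values) were not used. Read counts were recovered from the steps of the deposited FPKM in the 17 sorted libraries. FPKM + 1 was log2-transformed and fitted with limma 3.58.1 (trend and robust options) in R 4.3.3, after dropping genes that reached 1 FPKM in fewer than 3 libraries (fewer than 2 for the Piezo1 tables). The p-values were adjusted by Benjamini-Hochberg over all tested genes. The fit was tested on simulated data. Genes outside the 9 are named as the called genes of a list with the greatest difference, at most 3 per comparison, or as the gene most correlated with each of the 9. The 9 genes and the lists were chosen with earlier results of these data known. Exact intervals are for pooled reads. The fits were repeated with limma-voom on recovered reads, with a replicate block, without each library in turn, on the adjusted p alone, with median-ratio rescaling, without the filter and with 0.1 as pseudocount. No column of per-sample values was left without a sample. Python 3.11.15 with pandas 2.3.3, numpy 2.4.6, scipy 1.17.1 and matplotlib 3.10.9 was used elsewhere.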

Additional observations from a re-analysis of the deposited data

Results flagged for a closer look

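The interaction term, the genotype difference in lung less that in PB, passed the threshold (limma with Benjamini-Hochberg) for Nr4a1 (−0.94), Egr2 (−0.56), Nr4a2 (−0.49), Egr1 (−0.48) and Ier3 (−0.22), on the log2 scale. The call was lost for Ier3 after rescaling (−0.10, adjusted p = 0.0973) and for Nr4a2 by limma-voom (adjusted p = 0.158). For Nr4a1 and Egr2 WT was below cKO in lung and above it in PB (for Egr2 by 0.19, adjusted p = 0.199), whereas for Egr1 and Ier3 WT was above cKO in both tissues, by more in PB. The Nr4a2 value rests on PB libraries with 0 to 3 reads and repeats its difference in lung (−0.47). The PB cKO libraries held erythroid genes at a sum of 910 to 972 FPKM against 20.8 to 20.9 in PB WT, and their part in these values was not tested.

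Egr1 lay below PB in lung of the tissue experiment (−0.35) and above it in lung of WT mice of the Piezo1 experiment (0.66), with every library on the same side within each experiment. The difference between the experiments was not tested, because their tables were normalized separately. With rescaled FPKM the tissue experiment gave 0.28 and the Piezo1 experiment 1.41.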

How the results depend on the processing

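Of 108 alternative counts of called genes among the 9, 102 stayed within 1.5 times the reported count and 6 moved. On the adjusted p alone the counts were 8 for lung over PB in the tissue experiment, 7 and 4 for WT over cKO in lung and in PB, and 8 for lung over PB in WT and 8 in cKO mice. Of all genes, 85.5%, 50.7%, 49.7%, 89% and 84.5% passed on the adjusted p alone in these comparisons, in that order. The interaction gave 0 when a difference above 1 was required. Leaving out 1 library at a time gave 5 to 5, 8 to 8 and 6 to 6 in the tissue experiment (lung over PB, lung over BM, PB over BM), 0 to 0 for WT over cKO in lung and in PB, 4 to 4 and 5 to 6 for lung over PB in WT and cKO mice, 5 to 6 for the interaction and 0 to 0 for whole lung. With a replicate block the counts were 5, 8, 6, 0, 0, 4, 5, 5 and 0 in the same order, and the block changed no call of the 9 genes. Correlations of same-numbered deviations ran from −0.084 to 0.075 among the sorted libraries. With so few libraries per group they cannot show whether same-numbered libraries came from the same animal.

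Over the single genes, 802 alternatives kept direction and call, 32 gained and 8 lost a call, and 13 reversed. Rescaling reversed Egr1 (0.28) and Ier5 (0.18) for lung over PB in the tissue experiment, Nr4a3 (0.034) for WT over cKO in lung, and Ier2 (0.097), Ier5 (0.090) and Nr4a3 (0.020) in the interaction. Leaving out 1 library moved Ier2 for WT over cKO in PB between −0.039 and 0.23, and in the interaction Ier2 between −0.15 and 0.12 and Ier5 between −0.062 and 0.020. Both ends of the range of Ier2 in the interaction passed the threshold, without PB cKO replicate 1 at the upper and replicate 2 at the lower end. The library that turned the sign was PB cKO replicate 1 in each, and also lung WT replicate 2 for Ier5 and lung cKO replicate 2 for Ier2 in the interaction. In whole lung Egr2 moved between −0.041 and 0.077, and reversed without control replicate 2 or depleted replicate 2. The cause of these reversals was not tested.

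Over all genes, WT over cKO called 64 in lung and 265 in PB, against 332 and 672 with a pseudocount of 0.1 and 378 and 735 by limma-voom. The interaction called 3647, against 5509 with no filter and 518 with a difference above 1. Lung over PB in WT mice called 2429, against 1573 after rescaling. Whole lung called 1, against 0 to 12 over the alternatives, among them 5 with the replicate block. Rescaling moved the higher and lower calls from 587 and 1476 to 932 and 450 for lung over PB in the tissue experiment, from 812 and 2965 to 1587 and 1158 for lung over BM, from 536 and 1893 to 940 and 633 for lung over PB in WT mice, from 568 and 1644 to 977 and 550 in cKO mice, and from 1402 and 2245 to 1870 and 1774 for the interaction. Read depth limits Nr4a2, Nr4a3 and Egr3 in PB and BM.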

Other observations

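The gene whose level ran most like each of the 9 was looked for among 4468 genes, across the 17 sorted libraries with each experiment centred on its own mean. For the NR4A genes these were Trib1, a pseudokinase of myeloid cells (Pearson r = 0.997 with Nr4a1), Il23a, the p19 subunit of interleukin-23 (0.998 with Nr4a2), and Gpbp1 (0.994 with Nr4a3). For the IER genes they were Cxcr1, a chemokine receptor (0.994 with Ier2), Cxcl3, a neutrophil-attracting chemokine (0.995 with Ier3), and Steap4, a metalloreductase (0.994 with Ier5). For the EGR genes they were Ifngr1, a chain of the interferon-gamma receptor (0.974 with Egr1), Cd44, a hyaluronan receptor (0.980 with Egr2), and Casp4, an inflammatory caspase (0.992 with Egr3). Within the 9, Egr1 ran closer to Nr4a1 (0.830) than to Nr4a2 (0.501). These values describe libraries that fall into a few tissues and genotypes and share their normalization, so that any gene with the same order of tissues scores high.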
